A study of Rattus norvegicus with 90 samples.

Results

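Rat cardiomyocytes, the contractile cells of the heart, were kept with the high dose of thioacetamide-S-oxide, and RNA taken after 24 h was set against RNA taken after 9 h. The comparison used 10 of the 90 libraries of the series, 5 for each duration, chosen by the labels for cell type, dose and duration alone. The cells were labelled as Sprague-Dawley rat heart cells, and all of them had been kept in culture for a further 18 h before the agent was added at 1.50 mM. Cardiomyocytes given vehicle or the low dose of 0.50 mM for the same durations, again with 5 libraries each, served for reference, as did hepatocytes and renal cells at their own high doses of 0.125 and 0.500 mM. The poly-A-enriched libraries were sequenced and quantified per transcript, and the values are estimated counts, the number of read pairs that Kallisto assigned to each transcript.

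Thioacetamide itself is not the reactive compound. Cytochrome P450 and flavin-containing monooxygenase enzymes oxidize it to the S-oxide and then to an S,S-dioxide, which binds to proteins and lipids, and cells given the S-oxide start one step along that path. Cardiomyocytes hold many mitochondria, depend largely on oxidative metabolism and divide little once mature. Cells freshly placed in culture also change with time on their own, which is why the same interval was examined in vehicle.

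The source, age and purity of the cardiomyocytes are not given in the sources used here, nor is their vehicle medium, and nothing states that the 5 libraries of a group came from separate cultures. The p-values therefore measure the spread between these libraries, which may be technical. Transcripts are named by their Ensembl identifiers, because no table at hand paired these with genes. For the same reason the label of the cells could not be checked against cardiomyocyte markers, no marker of another cell type could be read, no pathway could be described and no sequence is printed. In RNA from whole cultures, fewer cells of a type and less RNA per cell cannot be told apart.

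The 24 h libraries differed from the 9 h libraries in their general make-up. They held 30115192 ± 10769180 estimated counts (SD, n = 5) against 44792329 ± 1682096 at 9 h, with a range of 14497025 to 44522293 at 24 h. When every cardiomyocyte library was thinned to 10519414 transcript counts, 20247 ± 1442 transcripts had at least 1 count at 24 h and 21210 ± 54.5 at 9 h (exact two-sided permutation test, p = 0.00794, adjusted over 5 measures 0.0132). The 100 most abundant transcripts took 26.3 ± 0.514% of the transcript counts at 24 h and 23.9 ± 0.442% at 9 h, with the same p-values, and the median transcript length weighted by TPM (the deposited abundance per transcript length) was 977.6 ± 44.7 bases at 24 h and 1071 ± 29.4 bases at 9 h, again with the same p-values. For these 3 measures every 24 h library lay on one side of every 9 h library, and 0.00794 is the smallest p that 5 against 5 libraries allow. Transcripts took 90.8 ± 2.02% of all counts at 24 h and 93.6 ± 1.004% at 9 h (exact permutation test, p = 0.0317, adjusted 0.0317), and the totals differed with p = 0.0238 in the same exact test (adjusted 0.0298). The part of these differences in the transcript results was not tested. In vehicle, for which these measures were not tested, the 100 most abundant took 26.0 to 26.6% at 9 h and 27.4 to 28.6% at 24 h. Vehicle libraries had 20363 to 20788 transcripts at equal depth at 9 h and 20462 to 20772 at 24 h. Their median lengths were 1017 to 1098 bases at 9 h and 1069 to 1144 bases at 24 h.

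**Figure D1:**
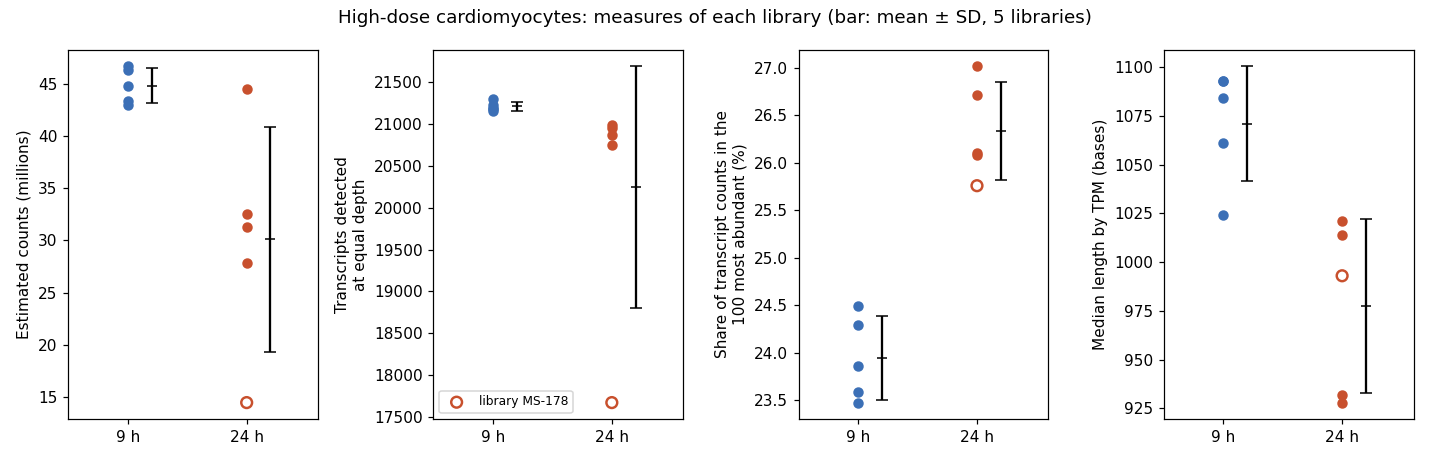
Each panel shows 1 measure of the 10 high-dose cardiomyocyte libraries (y axis: estimated counts, transcripts with at least 1 count at equal depth, share of transcript counts in the 100 most abundant transcripts in percent, and median transcript length by TPM in bases) at 9 and 24 h. Points are libraries, bars are the mean ± SD of 5 libraries and the open circle is library MS-178, which had 17673 transcripts at equal depth where the other 24 h libraries had 20746 to 20993.

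Library MS-178 of the 24 h group stood apart. It had the lowest total, 14497025 counts, and 17673 transcripts at equal depth. Its mean absolute difference from the other libraries of its group was 0.472 on the log2 CPM scale (CPM, counts scaled to the library size), against 0.206 to 0.247 for the other 4. Without it, the 24 h libraries had 20890.5 ± 108.4 transcripts at equal depth (n = 4), still under the 9 h libraries (exact permutation test, p = 0.0159, the smallest that 4 against 5 allow, adjusted 0.0265). The number of calls, their direction and the largest changes are therefore also given without it.

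Of 40071 transcripts, 18187 had enough counts to be tested, and 859 of them (4.72%) differed between 24 and 9 h. A transcript was called when edgeR's quasi-likelihood test gave a Benjamini-Hochberg adjusted p of at most 0.05 and the natural-log fold change reached 0.41 in either direction. More rose than fell: 591 (3.25%) were higher and 268 (1.47%) were lower at 24 h. The median log2 fold change of all tested transcripts was -0.01, and that of the called transcripts had a median size of 0.89. Changes of 2-fold or more were made by 240 transcripts that rose (1.32% of those tested) and 95 that fell (0.522%), and changes of 4-fold or more by 34 and 14. Without MS-178 these numbers were 270 and 150 at 2-fold and 34 and 25 at 4-fold. At an unadjusted p under 0.05 there were 5901 transcripts, 32.4% of those tested, and 6865 without MS-178.

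Leaving out MS-178 raised the number of calls to 1075 (5.82% of 18484 tested), 700 higher and 375 lower. Of the 859 calls made with all libraries, 776 remained (90.3%), and these were 72.2% of the 1075. No call changed sign. Among the 859, 551 were called in each of the 10 fits that left out 1 library, 401 of them higher and 150 lower. In 723 of the 859 (84.2%) the 5 libraries of one time all lay on one side of the 5 of the other, as they did in 3324 of all 18187 transcripts tested (18.3%).

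The changed transcripts were spread over the whole range of length and level. When the tested transcripts were divided by length into 4 bins of equal number, the share called was 4.22%, 4.09%, 4.996% and 5.59% from the shortest bin to the longest. By level, it was 4.60%, 6.33%, 3.67% and 4.29% from the bin with the lowest mean log2 CPM to the highest. The share of called transcripts that were higher at 24 h differed with level: it was 58.9% in the lowest bin and 70.1%, 73.1% and 73.8% in the other 3. The lowest bin depended on MS-178: without it 7.83% of that bin was called, the highest share of the 4, and 53.9% of these calls were higher, while the other bins had 7.13%, 3.85% and 4.35% called. By length the shares without MS-178 were 5.48%, 4.99%, 5.99% and 6.71%. The transcripts that rose had a median length of 2412 bases and those that fell 2382 bases, beside 2137 bases for transcripts not called. In 7294 of the tested transcripts (40.1%) every estimated count was a whole number, so that no read pair had been divided with another transcript, and 378 of the called transcripts were of this kind, 5.18% of these against 4.42% of the rest.

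**Figure D2:**
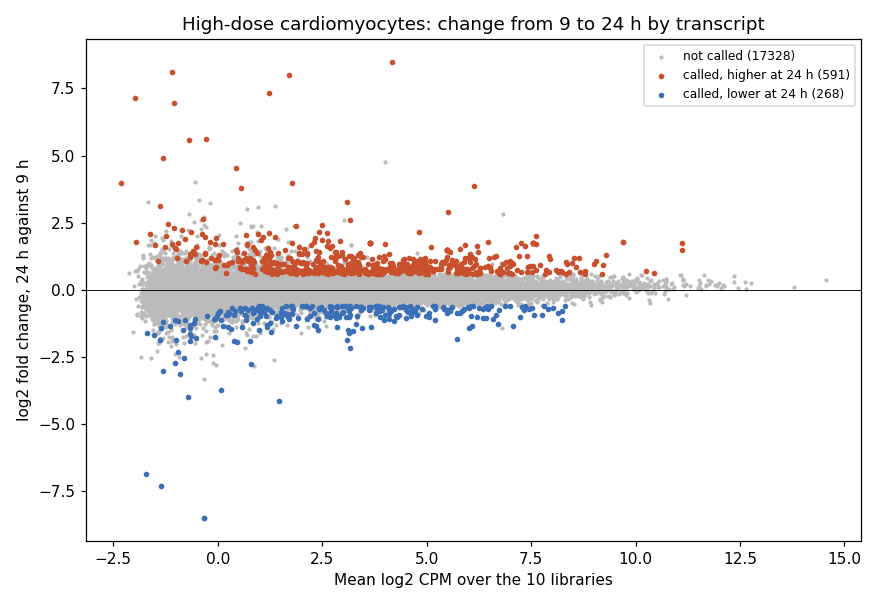
Log2 fold change from 9 to 24 h (y axis) against mean log2 CPM over the 10 high-dose libraries (x axis), 1 point per tested transcript. The 591 transcripts called higher and the 268 called lower are coloured, and the changes of 4-fold or more lie mostly at low levels.

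The 8 largest increases among well-counted transcripts were between 3.29-fold and 14.4-fold. They were drawn from the 281 called transcripts whose mean log2 CPM reached 3, with a higher level at 24 h and no overlap between the groups. The largest was ENSRNOT00000018447, a transcript of 4475 bases. Its level at 9 h was 23.1, 12.8, 3.87, 1.91 and 1.89 CPM in libraries MS-161 to MS-165, and at 24 h it was 229, 221, 77.3, 45.3 and 59.6 CPM in MS-176 to MS-180. The groups did not overlap, although each spanned a wide range, and the log2 fold change was 3.85 ± 0.78 (SE), adjusted p = 0.00533. All levels in CPM were scaled over the 30 cardiomyocyte libraries together.

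ENSRNOT00000007879, of 729 bases, rose with less spread. It was at 2.07, 1.599, 1.599, 1.05 and 1.37 CPM at 9 h and at 19.7, 18.2, 18.1, 9.98 and 9.69 CPM at 24 h, a log2 fold change of 3.28 ± 0.26 (adjusted p = 2.18e-05). All its counts were whole numbers. ENSRNOT00000088355 was similarly tight, with 32.1 to 44.1 CPM at 9 h and 100.5 to 170.05 CPM at 24 h, a log2 fold change of 1.77 ± 0.16 (adjusted p = 4.10e-05).

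The other 5 transcripts of this set had wide groups at 9 h. ENSRNOT00000004753 went from between 2.40 and 24.4 CPM to between 36.5 and 139.5 CPM (log2 fold change 2.90 ± 0.67, adjusted p = 0.0108). ENSRNOT00000009233 went from between 38.8 and 140.6 CPM at 9 h to between 211 and 397 CPM at 24 h (1.99 ± 0.36, adjusted p = 0.00271). For ENSRNOT00000027756 and ENSRNOT00000065065 the log2 fold changes were 1.73 ± 0.24 and 1.72 ± 0.31. The fifth, ENSRNOT00000075397, was also the transcript with the most counts among those that rose, at 1777, 1198, 736, 558 and 595 CPM at 9 h and 4527, 4471, 2922, 2061 and 2419 CPM at 24 h (1.74 ± 0.35, adjusted p = 0.00547). In each of these 5, as in ENSRNOT00000018447, library MS-161 was the highest of the 9 h group, and in each of the 5 MS-164 was the lowest.

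That order of the 9 h libraries was common among the transcripts that rose. MS-161 was the highest 9 h library in 319 of the 591 (54.0%) and in 22.9% of all tested transcripts. MS-164 was the lowest in 272 of the 591 (46.0%) and in 21.6% of all tested. Among the 268 transcripts that fell the order was turned round: MS-164 was the highest 9 h library in 51.9% of them and MS-161 the lowest in 45.5%. Among the 24 h libraries, MS-179 was the lowest in 236 of the 591 that rose (39.9%, against 21.5% of all tested).

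**Figure D3:**
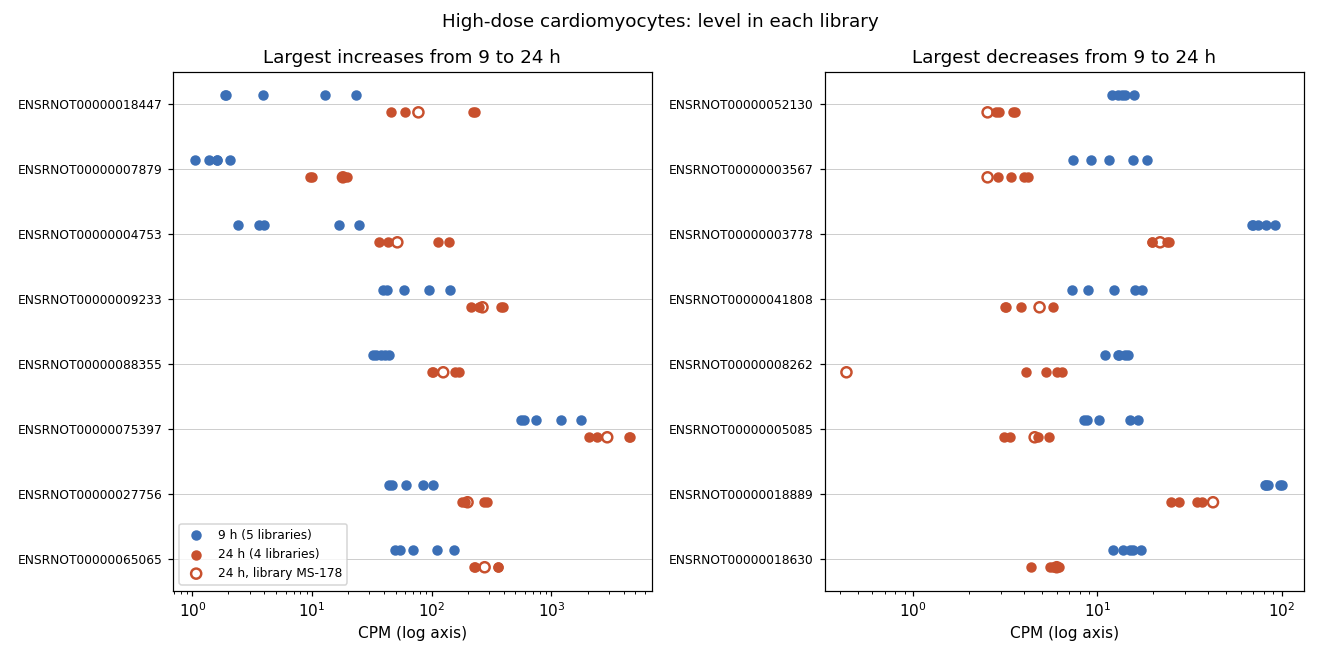
Level in CPM (x axis, log scale) of the 8 largest increases and the 8 largest decreases in each high-dose library, 9 h in blue above each line and 24 h in red below it, with MS-178 as an open circle. In every transcript shown the 9 h and 24 h libraries do not overlap, which was a condition of the choice. MS-178 lies far below its group only for ENSRNOT00000008262, at 0.434 CPM.

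The 8 largest decreases among well-counted transcripts had log2 fold changes between -2.16 and -1.42, chosen by the same conditions in the other direction. ENSRNOT00000052130, of 1950 bases, was at 11.9, 12.9, 13.6, 15.7 and 14.1 CPM at 9 h and at 3.55, 2.81, 2.53, 3.47 and 2.93 CPM at 24 h. It fell by 2.16 on the log2 scale (SE 0.12, adjusted p = 2.97e-06), with little spread in either group. ENSRNOT00000003778, of 926 bases, fell by 1.84 (SE 0.10, adjusted p = 2.97e-06), from 68.7, 69.8, 74.7, 91.5 and 82.1 CPM to 19.6, 19.8, 21.9, 24.4 and 23.7 CPM. ENSRNOT00000018889 fell by 1.44 (SE 0.13, adjusted p = 5.67e-05), from between 81.4 and 99.96 CPM at 9 h to between 24.9 and 42.3 CPM at 24 h. For all 3 the gap between the groups was wider than the range of either group.

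ENSRNOT00000018630 fell by 1.42 (SE 0.12), from a mean of 14.7 ± 1.88 CPM to 5.57 ± 0.715 CPM. ENSRNOT00000003567, ENSRNOT00000041808 and ENSRNOT00000005085 had 9 h groups that spanned 7.36 to 18.6, 7.30 to 17.5 and 8.48 to 16.6 CPM, and they fell by between 1.50 and 1.87. In these 3, MS-164 was the highest of the 9 h libraries and MS-161 the lowest. ENSRNOT00000008262 fell by 1.54 (SE 0.40, adjusted p = 0.0182), and 1 library took part in that value: MS-178 was at 0.434 CPM and the other 24 h libraries at 4.08 to 6.40 CPM. Without MS-178 it fell by 1.28 (adjusted p = 1.92e-04). All 16 transcripts of both sets were called without MS-178 as well, with log2 fold changes of 1.74 to 3.99 for the increases and -2.09 to -1.28 for the decreases. There ENSRNOT00000018447 was at 3.99, ENSRNOT00000007879 at 3.22 and ENSRNOT00000052130 at -2.09.

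The most abundant changed transcripts, by counts and not per length, made smaller changes. Beside ENSRNOT00000075397, the counts among transcripts that rose were highest for ENSRNOT00000079005, ENSRNOT00000057585 and ENSRNOT00000077071. ENSRNOT00000077071 rose by 0.69 ± 0.08 on the log2 scale, from 887 ± 82.7 to 1441 ± 146.9 CPM. ENSRNOT00000057585 rose by 0.62 ± 0.06, from 1043 ± 99.2 to 1621 ± 63.97 CPM, and without MS-164 or without MS-165 its fold change of 0.59 or 0.58 was just short of the threshold. In the fit of all 6 cardiomyocyte groups its adjusted p was 0.0577, and over all alternatives it was at most that.

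ENSRNOT00000079005, of 798 bases, was not as secure. Its groups overlapped, at 2384, 1160.0, 616, 728 and 549 CPM at 9 h and 4316, 4345, 2092, 1129 and 3606 CPM at 24 h. The log2 fold change was 1.50 ± 0.47 with adjusted p = 0.0448, and the call was lost when MS-162, MS-163, MS-164, MS-165, MS-176, MS-177 or MS-180 was left out, with adjusted p between 0.0807 and 0.109. Over all alternatives its adjusted p ran from 0.00321 to 0.257.

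The 4 most abundant transcripts that fell were tighter. ENSRNOT00000019192 fell by 1.15 (SE 0.08), from 337, 355, 368, 468 and 424 CPM to 177.4, 180.5, 179.2, 176.7 and 177.9 CPM, so that the 24 h libraries lay within a few CPM of each other. ENSRNOT00000067875 fell by 0.86, ENSRNOT00000008008 by 0.81 and ENSRNOT00000084782 by 0.62. The call for ENSRNOT00000084782 was lost without MS-176, where it fell by 0.59, and without MS-177, where it fell by 0.58, both just under the fold threshold.

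The changes of 4-fold or more lay mostly below the level used for the sets above. Of these 48 transcripts, 41 had a mean log2 CPM under 3, and 27 had no count in at least 1 library. Those described next were picked out after their values had been seen.

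A group of 8 among the 34 that rose was near 0 in the high-dose libraries at 9 h and in the vehicle libraries at both times, with a mean of at most 0.05 CPM in each of these 3 groups. At the high dose at 24 h their means were between 0.342 and 6.49 CPM. They passed the filter on low counts through the 24 h libraries, so their calls are given as a description. In 5 all counts were whole numbers. Their lengths ran from 701 to 2069 bases. The test of the difference from the vehicle time course, described below, covered 6 of the 8 and called 1. For the others it covered, no difference from vehicle was detected.

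The highest of the 8 at 24 h was ENSRNOT00000003921. It had 0, 0, 0, 3 and 2 estimated counts in the 9 h libraries and between 110 (in MS-178) and 247 in the 24 h libraries, with a mean of 6.49 ± 0.876 CPM there. ENSRNOT00000022113 had 0, 2, 2, 1 and 2 counts at 9 h and 58, 39, 33, 53 and 39 at 24 h. Each 24 h library thus held at least 33 counts of a transcript with at most 3 counts in any 9 h library, in spite of the larger totals at 9 h.

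Of the other 6, ENSRNOT00000004174 and ENSRNOT00000009248 had no count in any 9 h library. At 24 h ENSRNOT00000004174 had 39, 32, 14, 20 and 23 counts, and its summed level was at least 70.7-fold higher than the level that 3 counts over the 9 h group would give. ENSRNOT00000009248 had 12, 10, 9, 15 and 17 counts at 24 h, at least 34.8-fold higher on the same floor. ENSRNOT00000012577 had 1 count over the 9 h libraries and 47, 22, 16, 19 and 29 at 24 h. The remaining 3 were ENSRNOT00000046857, ENSRNOT00000058422 and ENSRNOT00000048739, with means of 1.22, 0.759 and 0.342 CPM at 24 h. At the low dose the 8 means were 0 to 0.332 CPM at 9 h and 0.0466 to 0.712 CPM at 24 h, and each of the 8 was higher at 24 h than at 9 h there.

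Some other large changes rested on few libraries. The largest fitted increase, of ENSRNOT00000080984, came from 0, 0, 0, 0 and 21 counts at 9 h and 54, 4062, 17, 0 and 204 counts at 24 h, with 1 library, MS-177, holding most of them. Its call was lost without MS-163, MS-164, MS-165 or MS-177, and without MS-177 its adjusted p was 0.0729. ENSRNOT00000010031, among those that fell, had 15, 25, 66, 563 and 388 counts at 9 h and 12, 4, 0, 9 and 12 at 24 h. It was still called in each of the 10 fits that left out 1 library.

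In the other direction, 4 transcripts that were counted in every 9 h library had no count in any 24 h library. These 4 passed the filter on low counts through the 9 h libraries, so their calls too are given as a description. ENSRNOT00000092200 had 57, 72, 48, 13 and 94 counts at 9 h. ENSRNOT00000079466 had 282 over the 9 h libraries, with at least 27 in each. ENSRNOT00000077883 had 12, 34, 35, 30 and 12 counts, and ENSRNOT00000084747 had 13, 24, 13, 18 and 22. Against a floor of 3 counts over the 24 h group they were, in this order, at least 57.1-fold, 56.7-fold, 24.7-fold and 18.1-fold lower. In all 4 some counts had been divided with other transcripts. In vehicle, ENSRNOT00000079466 was at 1.09 CPM at 9 h and 1.04 CPM at 24 h, and ENSRNOT00000084747 at 0.114 and 0.267 CPM. The other 2 were lower at 24 h in vehicle as well, ENSRNOT00000077883 at 0.228 and 0 CPM and ENSRNOT00000092200 at 0.398 and 0.137 CPM. At the low dose ENSRNOT00000079466 was at 1.07 CPM at 9 h and 7.65 CPM at 24 h, the opposite direction to the high dose. The other 3 had lower means at 24 h there, ENSRNOT00000084747 with 1.46 and 1.17 CPM, ENSRNOT00000077883 with 0.637 and 0.105 CPM and ENSRNOT00000092200 with 0.524 and 0.340 CPM.

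Over the same interval in vehicle 1303 of 16921 transcripts were called (7.70%), 850 higher (5.02%) and 453 lower (2.68%), and the mean absolute log2 fold change over the tested transcripts was 0.29, the same as the 0.29 at the high dose. The vehicle and high-dose time courses share no library. They had 274 calls in common, 31.9% of the 859 (34.1% of the 803 that were tested in vehicle) and 21.0% of the 1303. Of these, 225 changed in the same direction, 191 upward and 34 downward, while 35 rose at the high dose and fell in vehicle and 14 did the reverse. The transcripts that rose at the high dose had a median log2 fold change of 0.31 in vehicle, and those that fell had -0.11, beside 0.01 over all transcripts tested in both.

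**Figure D4:**
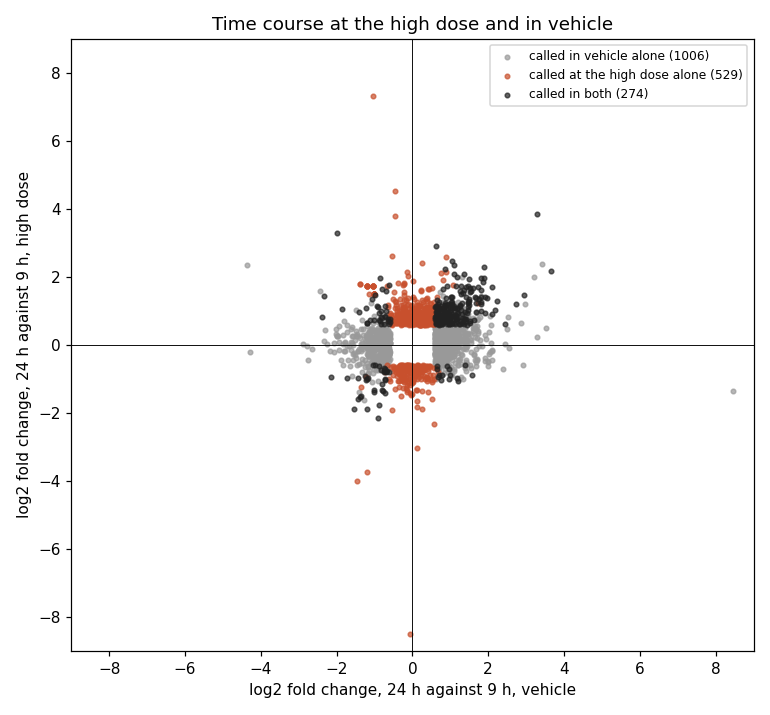
Log2 fold change from 9 to 24 h at the high dose (y axis) against the same in vehicle (x axis), for transcripts tested in both and called in at least 1. There are 274 called in both (black), 529 called at the high dose alone (red) and 1006 called in vehicle alone (grey), and the black points lie mostly in the upper right.

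The difference between both time courses was then tested itself, by an interaction term over the 20 libraries. It was called for 1414 of 18288 transcripts (7.73%), 793 with the high dose above vehicle (4.34%) and 621 below (3.40%), for 1582 without MS-178 and for 700 when all 6 cardiomyocyte groups were fitted together. Among the 736 of the 793 that were tested in each time course, the median log2 fold change was 0.47 at the high dose and -0.52 in vehicle, and in 610 the signs were opposite. Among 593 of the 621 the medians were -0.32 at the high dose and 0.66 in vehicle, with opposite signs in 415. These time courses enter the interaction, so the values are given side by side and not as separate evidence.

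Among transcripts whose mean log2 CPM over these 20 libraries reached 3, the largest positive difference was that of ENSRNOT00000007879, the short transcript described above. Transcripts under that level with few or no counts in a group, among them ENSRNOT00000004174 and ENSRNOT00000064349, had larger fitted values and were not ranked. In vehicle ENSRNOT00000007879 fell from 25.5 ± 2.22 CPM at 9 h to 6.41 ± 0.569 CPM at 24 h (n = 5 each), while at the high dose it rose from 1.54 ± 0.373 to 15.1 ± 4.87 CPM. At 9 h it was thus lower at the high dose than in vehicle and at 24 h higher, and the interaction was 5.26 ± 0.27 (adjusted p = 1.26e-10). At the low dose it stayed low, at 2.55 ± 0.719 and 3.72 ± 2.82 CPM.

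ENSRNOT00000007219, of 2817 bases, had a similar course. At the high dose it rose from 9.98, 10.6, 10.2, 9.03 and 10.01 CPM to 20.5, 19.6, 14.8, 16.9 and 17.1 CPM (log2 fold change 0.83 ± 0.09, adjusted p = 1.43e-04). In vehicle it fell from 13.9 ± 0.80 to 2.65 ± 0.363 CPM, and the interaction was 3.21 ± 0.13 (adjusted p = 1.72e-11). The low dose had 2.13 ± 0.431 and 2.44 ± 0.577 CPM, under the high dose at both times. The third, ENSRNOT00000077306, had an interaction of 3.18 ± 0.76 (adjusted p = 0.00535) from groups with wide spread, 355 ± 248 to 1233 ± 628 CPM at the high dose and 1034 ± 522 to 393 ± 306 CPM in vehicle. Its own high-dose groups overlapped, and its high-dose call (log2 fold change 1.78, adjusted p = 0.0274) was lost without any 1 of MS-162, MS-163, MS-164, MS-165, MS-176, MS-177 and MS-180, with adjusted p between 0.0501 and 0.0728. Over all alternatives its high-dose adjusted p ran from 0.00202 to 0.141, and its interaction was not called in the fit of all 6 groups (adjusted p = 0.0557). At each time the high-dose libraries had the same order for it as for ENSRNOT00000079005. Both transcripts lost the high-dose call when the same libraries were left out, so they may not be separate results.

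The 3 largest negative differences at the same level were those of ENSRNOT00000028220, ENSRNOT00000003778 and ENSRNOT00000006142. ENSRNOT00000028220 was at 15.6 ± 1.08 and 10.4 ± 2.06 CPM at the high dose and at 11.9 ± 1.21 and 31.1 ± 3.53 CPM in vehicle, an interaction of -1.99 ± 0.16 (adjusted p = 4.22e-08). Its decrease at the high dose, -0.60 ± 0.12, was close to the fold threshold and was under it without MS-162, MS-163, MS-176, MS-177 or MS-178, at -0.57, -0.59, -0.57, -0.56 and -0.51. ENSRNOT00000006142 was not called at the high dose, with 27.3 ± 3.18 and 22.2 ± 1.59 CPM, and rose in vehicle from 26.5 ± 1.71 to 80.9 ± 1.35 CPM (interaction -1.92 ± 0.10, adjusted p = 9.37e-11). At the low dose it was above vehicle and the high dose at 9 h, with 59.6 ± 2.23 CPM, and between them at 24 h, with 70.3 ± 5.42 CPM.

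**Figure D5:**
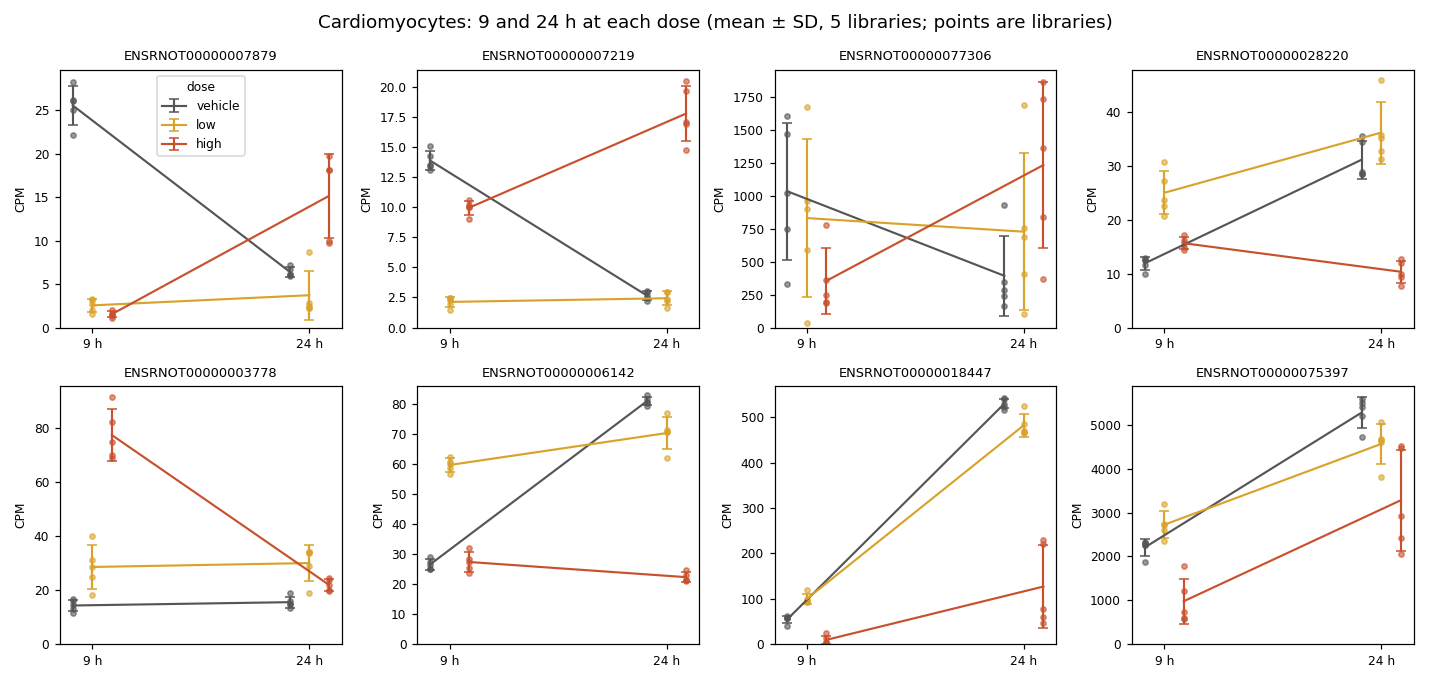
Level in CPM (y axis, linear and separate for each panel) of 8 transcripts at 9 and 24 h (x axis) in vehicle (grey), low-dose (yellow) and high-dose (red) cardiomyocytes. Small points are libraries and the lines join the means, with bars of ± SD over 5 libraries. ENSRNOT00000007879 and ENSRNOT00000007219 fall in vehicle and rise at the high dose, ENSRNOT00000003778 starts high and falls at the high dose alone, and ENSRNOT00000018447 rises at all doses.

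ENSRNOT00000003778 had an interaction of -1.95 ± 0.15 (adjusted p = 3.58e-08). It was at 77.4 ± 9.53 CPM at the high dose at 9 h, where vehicle had 14.2 ± 2.16 and the low dose 28.5 ± 8.11 CPM. At 24 h the high dose had 21.9 ± 2.18 CPM, nearer to the 15.4 ± 2.01 CPM of vehicle and under the 29.9 ± 6.54 CPM of the low dose. ENSRNOT00000018889 also fell at the high dose from a level above vehicle, at 89.1 ± 8.88 and 33.3 ± 7.03 CPM beside 19.6 ± 1.15 and 19.2 ± 0.918 CPM in vehicle, and at 24 h it was above the 26.7 CPM of the low dose. ENSRNOT00000003567, whose mean log2 CPM over the 20 libraries was 2.59, had an interaction of -2.11 (adjusted p = 1.32e-04), with 12.5 and 3.41 CPM at the high dose and 2.94 and 3.45 CPM in vehicle. ENSRNOT00000052130 was at 13.6 CPM at the high dose at 9 h and at 1.25 CPM in vehicle, and fell in both. ENSRNOT00000041808 fell at the high dose and in vehicle, with an interaction of -0.15 ± 0.32 (adjusted p = 0.794).

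Among the 8 largest increases, ENSRNOT00000018447, ENSRNOT00000009233, ENSRNOT00000075397, ENSRNOT00000027756 and ENSRNOT00000065065 also rose in vehicle. Their interactions were between 0.27 and 0.81, with adjusted p between 0.145 and 0.670, so that no difference between the courses was detected. Their mean levels were lower at the high dose at both times. ENSRNOT00000018447 was at 8.73 ± 9.24 and 126.4 ± 90.7 CPM beside 54.3 ± 8.08 and 530.3 ± 10.7 CPM in vehicle, and ENSRNOT00000075397 at 973 ± 517 and 3280 ± 1154 CPM beside 2201 ± 185.3 and 5286 ± 349 CPM. ENSRNOT00000004753 rose in vehicle too, by 0.63, with an interaction of 2.28 (adjusted p = 0.0236). ENSRNOT00000088355 rose at the high dose and fell in vehicle, from 41.7 ± 2.76 to 27.2 ± 2.30 CPM (interaction 2.38 ± 0.18, adjusted p = 1.87e-08).

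At the low dose the edgeR test called fewer transcripts over the same interval, 1.03% of 17214, with 0.941% higher and 0.0871% lower. Of these calls 91.5% were higher, against 78.9% of the calls that DESeq2 made with its own scaling, which were 2.64% of the transcripts. With limma-voom and library weights 7.94% were called, 64.1% of these calls higher. The same method called 1269 of 18187 at the high dose, a smaller share, so the order of the doses depended on the method. At the low dose libraries MS-158 at 9 h and MS-172 at 24 h stood apart, and without both, an alternative chosen after the data were seen, 4.12% were called and 72.6% of these calls were higher. Leaving out MS-157 alone gave 0.334% and leaving out MS-158 alone 1.64%. The low-dose and high-dose time courses share no library, and 94 transcripts were called in both, 53.1% of the low-dose calls and 10.9% of the high-dose calls (11.6% of the 812 that were tested at the low dose). All 94 changed in the same direction, 86 upward and 8 downward. The transcripts that rose at the high dose had a median log2 fold change of 0.56 at the low dose, and those that fell had -0.29.

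The difference between the high-dose and low-dose time courses was called for 51 of 18831 transcripts (0.271%), 26 with the high dose above (0.138%) and 25 below (0.133%). There were 1348 at an unadjusted p under 0.05. Leaving out 1 library gave between 0.171% (without MS-177) and 0.626% (without MS-158), and leaving out MS-158, MS-172 and MS-178 together, chosen after the data were seen, gave 1.99%. DESeq2 called 1.24% and limma-voom with library weights 5.65%. The small number in the test with all libraries does not show that the courses were alike.

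In the other cell types the interval at the high dose, which was a lower concentration there, changed more transcripts: 2614 of 16639 (15.7%, 8.60% higher and 7.11% lower) in hepatocytes and 2397 of 17941 (13.4%, 6.03% higher and 7.34% lower) in renal cells. The calls in common with hepatocytes were 19.3% of the 859, or 28.5% of the 582 that were tested in hepatocytes, and 6.35% of the hepatocyte calls, 92 in the same direction and 74 in the opposite. With renal cells there were 220, 25.6% of the 859, or 29.9% of the 736 that were tested there, and 9.18% of the renal calls, 100 in the same direction and 120 in the opposite. Of these 120, 18 fell in cardiomyocytes and rose in renal cells, and the others did the reverse. ENSRNOT00000003778, which fell by 1.84 in cardiomyocytes, had a log2 fold change of 2.28 in renal cells (adjusted p = 3.06e-08) and of -0.62 in hepatocytes (adjusted p = 0.00343).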

How the data were processed

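The authors pseudo-aligned the reads with Kallisto (0.42.4 per the submitters' processing notes) to the Rnor_6.0 transcriptome and deposited, per library, an estimated count, TPM, length and effective length for each of 65166 targets: 40071 transcripts and 25095 genomic intervals, whose origin is not given in the sources used here. The intervals entered the library totals and the share of counts on transcripts, and were tested only in 1 alternative. The deposited TPM, which keep no depth, served for the weighted lengths and 2 alternatives. Estimated counts are not whole where read pairs were divided between transcripts, and were rounded here. The cardiomyocyte libraries held 11519925 to 61897142 counts, so that counting error is small apart from transcripts with few counts. Intervals and floors cover counting error only.

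Tests used R 4.3.3 and edgeR 4.0.16: filterByExpr, TMM scaling, estimateDisp, glmQLFit and glmQLFTest on a model with 1 mean per group, with Benjamini-Hochberg adjustment over all transcripts tested and the study's thresholds (adjusted p of at most 0.05, natural-log fold change of at least 0.41). Each time course was fitted on its own 10 libraries and each interaction on 20. The standard error is the size of the log2 fold change divided by the root of the F statistic. Sleuth, which the study used, was not run here. Library measures were compared by exact two-sided permutation tests (scipy 1.17.1). Alternatives used DESeq2 1.42.0 and limma 3.58.1. Checked on simulated counts for the high-dose comparison (17831 transcripts tested), the fit recovered 129 of 193 changed transcripts, 117 of the 143 changed by 2-fold or more, none in the wrong direction, with 3 unchanged ones called. The simulated counts were drawn independently for each transcript. They held no library that stood apart and no shared order of libraries, so these rates need not hold for the data.

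Transcripts named are the 8 largest increases and 8 largest decreases among calls whose mean log2 CPM reached 3 and whose groups do not overlap, the 4 calls with the highest mean CPM in each direction, and the 3 largest interactions with vehicle in each direction at the same level over the 20 libraries of that fit. The members, lists and tests were chosen with earlier results of these data known. The lists of cardiomyocyte, fibroblast, smooth muscle, endothelial, macrophage, hepatocyte and renal tubule markers and the other gene lists could not be used, because 0 of the transcripts were matched to the gene table at hand (assembly GRCr8). Of the 90 libraries, 50 were used and 40 were not.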

Additional observations from a re-analysis of the deposited data

Results flagged for a closer look

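Library MS-178 of the high dose at 24 h was far from the other 4 libraries of its group in 3 measures: 17673 transcripts at equal depth against 20746 to 20993, a mean absolute difference from its group of 0.472 on the log2 CPM scale against 0.206 to 0.247, and a median Spearman correlation with its group of 0.961 against 0.986 to 0.988. In all, 68 sets of 5 libraries were examined for such a library, where chance gives about 3.4. It was the only one marked in these sets, which held the library measures and the named transcripts at the high dose.

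The time course at the high dose differed from that in vehicle for 1414 transcripts and from that at the low dose for 51, each by the test of the difference itself. Among the 27 named transcripts the difference from vehicle was called for 17, beside 7.73% of all 18288 tested. The 3 largest in each direction were named because of this call, the rest for their change or level at the high dose. The 17 are therefore no separate result. The difference was positive for ENSRNOT00000007879 (5.26 on the log2 scale), ENSRNOT00000007219 (3.21), ENSRNOT00000077306 (3.18), ENSRNOT00000079005 (2.64), ENSRNOT00000088355 (2.38) and ENSRNOT00000004753 (2.28). It was negative for ENSRNOT00000003567 (-2.11), ENSRNOT00000028220 (-1.99), ENSRNOT00000003778 (-1.95), ENSRNOT00000006142 (-1.92), ENSRNOT00000018889 (-1.42), ENSRNOT00000052130 (-1.25), ENSRNOT00000005085 (-1.19), ENSRNOT00000084782 (-0.74), ENSRNOT00000067875 (-0.74), ENSRNOT00000008008 (-0.72) and ENSRNOT00000018630 (-0.70).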

How the results depend on the processing

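The 859 calls at the high dose became 466 when only transcripts with whole-number counts were tested, 335 at a fold change of at least 2 and 3783 (51.8% higher) with no fold threshold. They were between 644 and 1269 under DESeq2, upper-quartile scaling, 2 other filters, limma, limma-voom with library weights, a fit of all 6 cardiomyocyte groups and a fit with the intervals, and between 668 (without MS-164) and 1075 (without MS-178) when 1 library was left out. The 1414 calls of the interaction with vehicle became 700 in the fit of all 6 groups, 668 with whole-number counts, 674 at 2-fold and 3838 with no fold threshold, and were 1288 to 1582 without 1 library. Vehicle gave 1233 to 1340 without 1 library. The low-dose calls, 1.03% of the transcripts, became 2.64% with DESeq2, 7.94% with limma-voom and 4.12% without MS-158 and MS-172, and were 0.334% to 1.64% without 1 library. The calls of the high against the low dose, 0.271%, became 1.24% with DESeq2, 5.65% with limma-voom and 1.99% without MS-158, MS-172 and MS-178, and were 0.171% to 0.626% without 1 library. The mean absolute log2 fold change was 0.28 to 0.33 without 1 library. The cause of these shifts was not tested, apart from the thresholds and the smaller sets of transcripts or libraries, which change the counts by construction. Of the high-dose values under the alternatives for the 23 transcripts named for their change or level at the high dose, 409 kept their direction and call and 15 lost the call, and of the 6 named interactions 1 lost its call under 1 alternative, ENSRNOT00000077306 in the fit of all 6 groups (3.19, adjusted p = 0.0557). No direction turned. No paired analysis was possible because the libraries of different groups share no replicate number. Depth limits the transcripts with few counts, among them those with a count of 0 in a group.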
